A study of Arabidopsis thaliana with 6 samples.

Results

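Translation initiation and elongation factors were followed in water-soaked *Arabidopsis* seeds that carry a mutation in AGAMOUS-LIKE 67 (AGL67), a transcription factor of the MADS-box family. The probe sets were chosen by their titles in the authors' annotation. A title had to contain "translation initiation factor" or "elongation factor" and no mention of transcription. This gave 92 of 22746 probe sets, of which 89 carry the title of a translation factor. The other 3 are titled as rubber elongation factor family, a group that shares only the word and is not part of the translation machinery, and they are given separately. Of the 92 probe sets, 49 name 1 gene in the platform's annotation, 7 were matched to a gene through the authors' title, 6 name several genes and 30 were left without a gene and are called by their probe set. In all, 11 are marked by their names as shared probe sets, whose signal cannot be assigned to 1 gene.

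Total RNA was measured on 6 Affymetrix arrays, 3 of agl67 mutant seeds (called mads-box mutant in the labels) and 3 of wild-type seeds, both in the Columbia-0 background. All seeds, wild type included, had spent 3 days in water at 4 °C in the dark and then 3 hours in the light at 22 °C in 5 μM ABA (abscisic acid), a plant hormone that delays germination. The labels give no allele for the mutant and do not say how many lines it stands for. They call the samples biological replicates without saying whether each came from separate plants, so the p-values measure the spread between these samples. The purpose stated for the design was to find genes under AGL67 control in the window when seeds respond to ABA after dormancy is broken.

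Protein synthesis starts when initiation factors bring the initiator tRNA, the small ribosomal subunit and the mRNA cap together and find the start codon. Elongation factors then deliver each charged tRNA and move the ribosome along. Plastids and mitochondria use their own factors of bacterial type. Dry seeds store mRNA and ribosomes, translation resumes when they take up water, and germination needs it.

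The AGL67 probe set read 4.15, 4.30 and 3.66 on the mutant arrays, against 8.79, 8.25 and 8.78 on the wild-type arrays (log2 expression). It was thus lower in the seeds labelled as mutant (limma, adjusted p = 0.000887). Wild-type array 3 stood apart. Its median over all probe sets was 3.80, against 3.97 to 4.00 on the other 5 arrays, and its correlation with the other wild-type arrays was 0.980 and 0.983, against 0.994 between those. It was the lowest of the 6 arrays for 37 of the 92 probe sets (40.2%) and for 44.3% of all probe sets. Leaving it out turned the direction of 9 of the 92 changes. For probe sets named below, values without it are given where a call changed or a larger change moved markedly. Transcripts titled as oleosin, proteins that coat the oil bodies of seeds, read 8.85 to 13.8 in mutant seeds and 8.74 to 13.8 in wild-type seeds over 8 probe sets, and 0 of these passed the test. The 4 probe sets titled as 2S seed storage protein had summed log2 levels of 38.8 to 41.4 in mutant seeds and 43.0 to 44.2 in wild-type seeds, and 1 fell. The 16 titled as chlorophyll A-B binding protein, which mark greening tissue, had summed log2 levels of 64.9 to 66.9 in mutant seeds and 60.3 to 62.9 in wild-type seeds, and 2 rose. Many of the 16 were dim, with medians of 3.60 in mutant and 3.55 in wild-type seeds, below the array medians given above. None of these sums was adjusted for the lower median of wild-type array 3. The part of these differences in the results below was not tested. In bulk seeds a smaller amount of RNA per cell and fewer cells of a type cannot be told apart.

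Across all the factors, 3 probe sets rose in mutant seeds, 1 fell and 88 did not pass the test (limma, Benjamini-Hochberg adjusted p under 0.05). Of all probe sets, 2.7% passed, 1.93% being higher and 0.778% lower in the mutant. Only 2 of the 4 calls belong to translation factors, a rise of an eIF1 (SUI1) probe set and a fall of the eIF5 gene AT1G36730. The other 2 are rises of rubber elongation factor family titles. The median log2 change over the 92 was 0.04, and it was 0.02 over all probe sets. In both sets most changes were small: 82 of the 92 (89.1%) and 90.9% of all probe sets changed by less than 0.5 in either direction. The quartiles of the changes were -0.09 and 0.265 for the 92, and -0.11 and 0.18 for all probe sets. At an unadjusted p under 0.05 the counts were 22 of 92 (23.9%) and 16.4% of all probe sets.

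**Figure D1:**
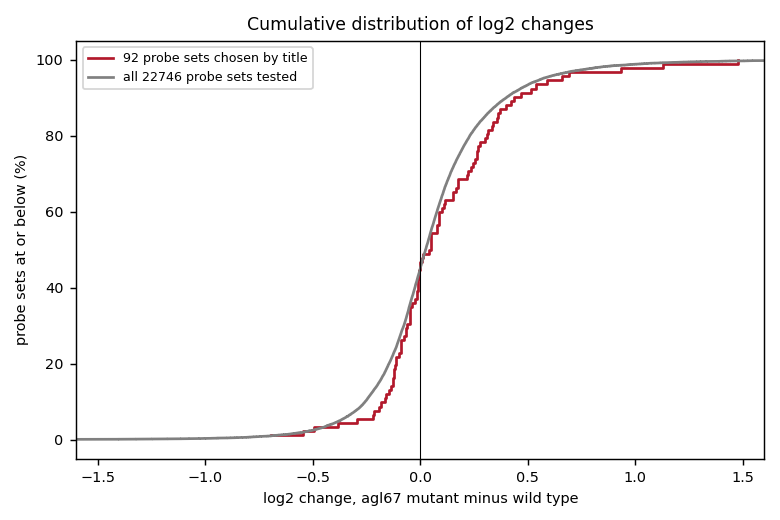
Cumulative share of probe sets (vertical axis, percent) at or below each log2 change between agl67 mutant and wild-type seeds (horizontal axis), for the 92 probe sets chosen by title and for all 22746. Both curves cross 0 change at a similar share, with 54.4% of the 92 and 54.9% of all probe sets above 0.

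The groups did not overlap for 27 of the 92 probe sets, against 24.0% of all probe sets. All mutant arrays read above all wild-type arrays in 20 (21.7%), where this held for 14.9% of all probe sets, and below them in 7 (7.61%), against 9.16% of all. Without wild-type array 3 these counts were 23 and 19, against 17.3% and 18.7% of all probe sets. The median SD within a group was 0.095 in mutant seeds and 0.163 in wild-type seeds, against 0.104 and 0.186 over all probe sets. Without wild-type array 3 the wild-type value was 0.093, against 0.107 over all probe sets.

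**Figure D2:**
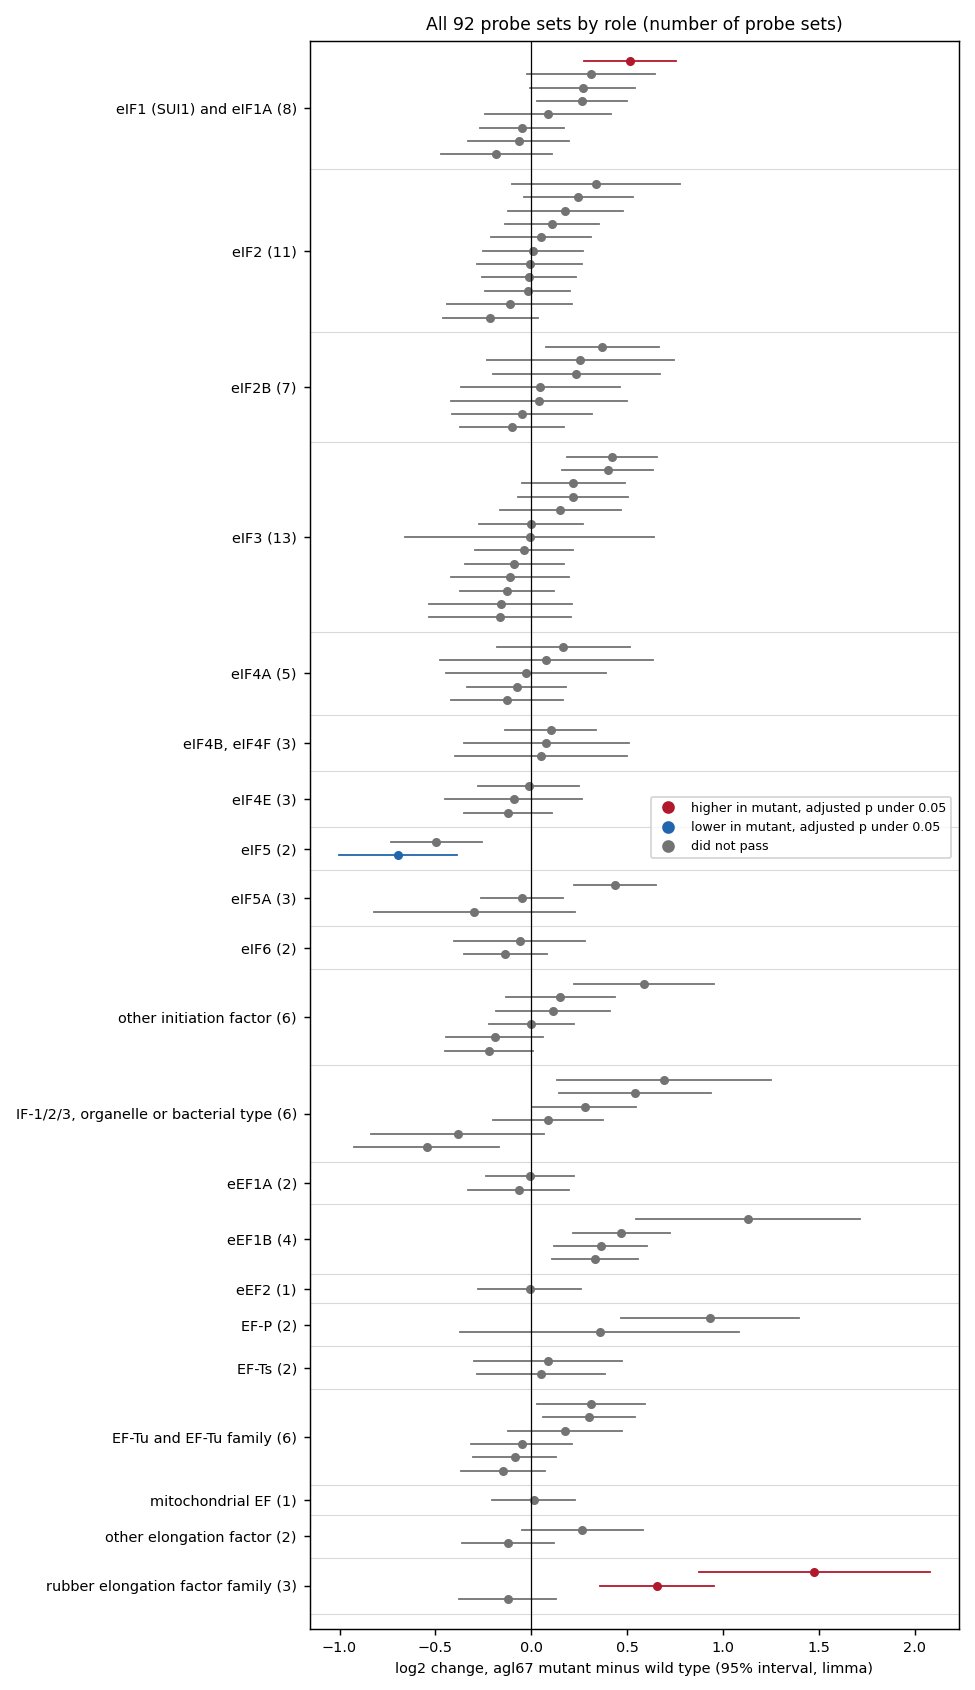
Log2 change (points) with its 95% interval (lines) for each of the 92 probe sets, agl67 mutant minus wild type, grouped by the role in the title, with the number of probe sets in brackets. Red marks probe sets that rose and blue one that fell. All 4 eEF1B intervals lie above 0 and both eIF5 intervals below it, while most other intervals reach 0.

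Among the factors that select the start codon, eIF1 and eIF5 gave the only calls. eIF1, also called SUI1, holds the scanning ribosome open until a start codon is found. Probe set 248126_at, titled as SUI1, read 10.02, 9.82 and 10.04 in mutant seeds, against 9.41, 9.45 and 9.47 in wild-type seeds. Its title holds the SUI1 entry more than once and no gene was paired with it, so its signal may stand for more than 1 gene. Every mutant array was above every wild-type array, and wild-type array 3 did not stand apart here. The log2 change was 0.51 (SE 0.10, 95% interval 0.28 to 0.75), a 1.43-fold higher level (limma, adjusted p = 0.0476). It passed in 1 of the 6 fits that leave out an array, that without wild-type array 3 (adjusted p = 0.0232), and missed the threshold when arrays were centred on their medians (adjusted p = 0.0838). The other 7 probe sets titled as SUI1, SUI1 family or eIF1A did not pass. The SUI1 genes AT4G27130 and AT5G54940 both had a log2 change of 0.27 and AT1G54290 had one of 0.09. AT1G71350, titled only as SUI1 family, had a log2 change of 0.31, and 0.17 without wild-type array 3. The eIF1A genes AT5G35680 and AT2G04520, which help load the initiator tRNA, had log2 changes of -0.18 and -0.07.

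eIF5 makes eIF2 hydrolyse its GTP once the start codon is recognised. Its gene AT1G36730 read 8.14, 8.01 and 8.32 in mutant seeds, against 8.68, 8.84 and 9.03 in wild-type seeds. No mutant array reached the wild-type range. The level fell by 0.695 on the log2 scale (SE 0.13, 95% interval -1.0 to -0.39), to 0.618 of wild type (limma, adjusted p = 0.0420). The call held without wild-type array 1 (adjusted p = 0.0423) or 3 (0.0209) and was lost without any other single array, and it was lost in the authors' deposited table (ratio -0.60, false discovery rate 0.0670). The second eIF5 gene, AT1G77840, read 7.85, 7.75 and 7.94 in mutant seeds, against 8.32, 8.43 and 8.26 in wild-type seeds. Here too the groups did not overlap, with a log2 change of -0.49 (95% interval -0.73 to -0.26), but the test was not passed with all arrays (limma, adjusted p = 0.0544). It was passed without wild-type array 3 (adjusted p = 0.0204). These are the only probe sets titled as eIF5.

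**Figure D3:**
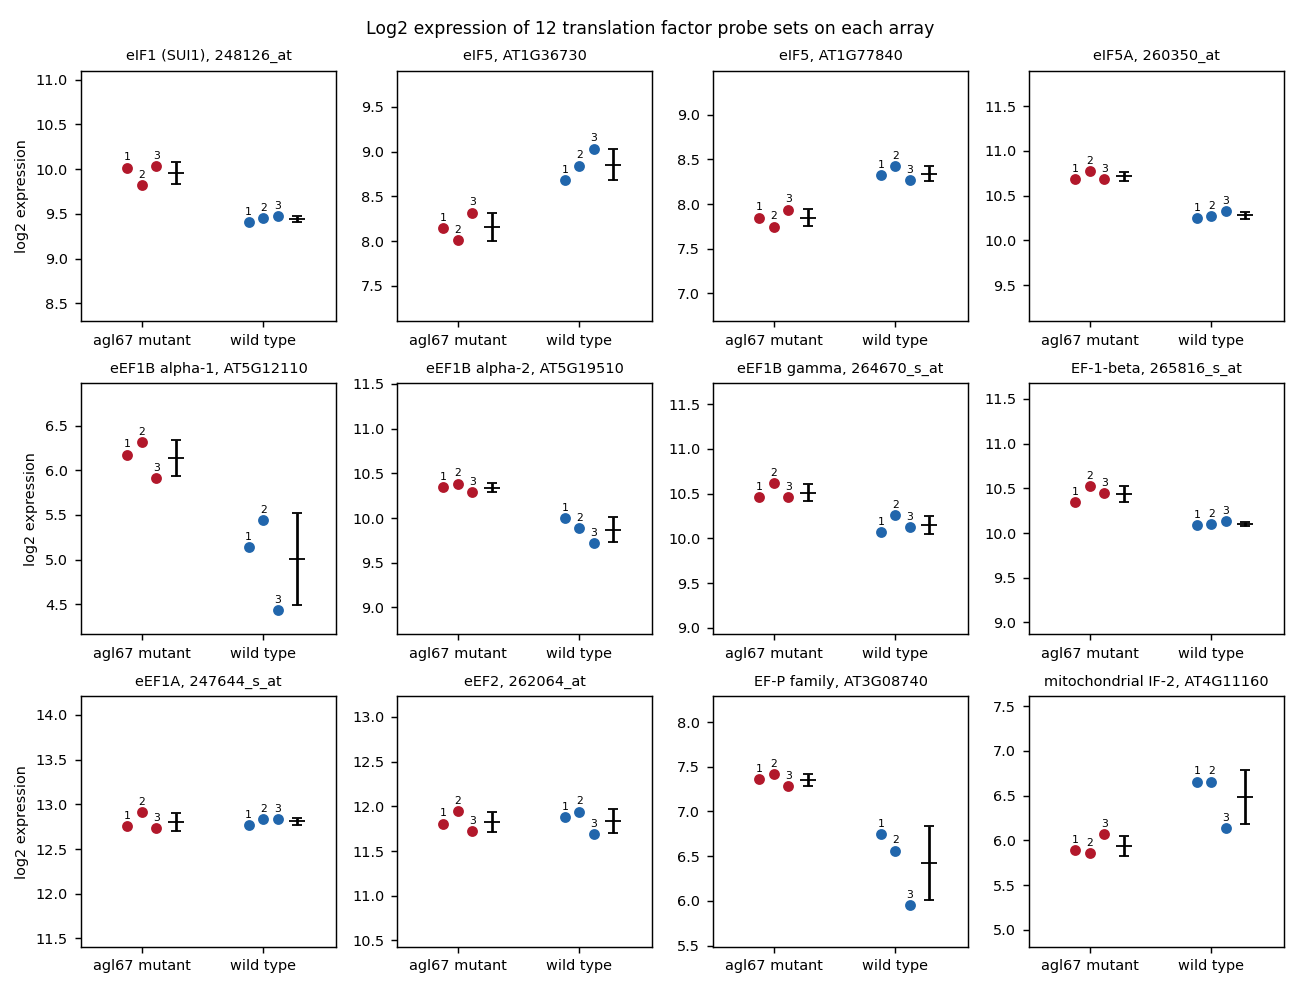
Log2 expression (vertical axes, each of the same span) of 12 translation factor probe sets on the 3 agl67 mutant arrays (red) and the 3 wild-type arrays (blue), numbered by replicate, with the mean and SD as a bar. The eIF5 genes and the mitochondrial IF-2 gene read lower on mutant arrays, eEF1A and eEF2 overlap between the groups, and the other 7 probe sets read higher on mutant arrays.

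eIF2 carries the initiator tRNA and eIF2B recharges eIF2 with GTP. None of the 11 probe sets titled as eIF2 or eIF2 family and of the 7 titled as eIF2B family passed the test. Titles of eIF2 family name no subunit, so these probe sets need not stand for parts of eIF2. Changes of these 11 probe sets ran from -0.21 to 0.34 on the log2 scale. The highest was that of AT1G21160, titled as eIF2 family, and it was 0.24 without wild-type array 3. AT1G76810, titled as eIF2 family, had the smallest p of them, with a log2 change of 0.25 (95% interval -0.04 to 0.53, limma, adjusted p = 0.372), and 0.14 without wild-type array 3. The eIF2B probe sets ran from -0.10 to 0.37, the last being 266033_at (limma, adjusted p = 0.202). The change of 266033_at was 0.25 without wild-type array 3, which read lowest of the 6 arrays in all 7 eIF2B probe sets.

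eIF3 is the large scaffold that ties mRNA and the small subunit together, and it had the most probe sets of any factor, 13, of which 0 passed. Their changes ran from -0.16 to 0.42. The probe set of its subunit 5 (267338_at) read 8.94, 9.003 and 8.95 in mutant seeds, against 8.57, 8.64 and 8.42 in wild-type seeds, a log2 change of 0.42 (95% interval 0.19 to 0.66, limma, adjusted p = 0.0824). The probe set of subunit 2 (266554_s_at), picked out after its values were seen, had a log2 change of 0.40 (limma, adjusted p = 0.0986). In both, all mutant arrays read above all wild-type arrays. The other 11 probe sets overlapped between the groups, EIF3A and EIF3C among them, with log2 changes of -0.16 and -0.0036.

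None of the 11 probe sets for factors that recognise the mRNA cap and unwind the leader passed. The helicase eIF4A had 5 probe sets between -0.13 and 0.17, and the 3 titled as eIF4B or eIF4F lay between 0.05 and 0.10. The cap-binding protein eIF4E had a log2 change of -0.12 (95% interval -0.35 to 0.11), and its plant isoform (LSP1, eIFiso4E) one of -0.01 (95% interval -0.28 to 0.25). Both cap-binding genes overlapped between the groups.

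eIF5A helps ribosomes through sequences where they stall, such as runs of proline, and its 3 probe sets gave different values. 260350_at read 10.69, 10.77 and 10.69 in mutant seeds, against 10.25, 10.27 and 10.32 in wild-type seeds, without overlap. The log2 change was 0.43 (95% interval 0.22 to 0.65), and it missed the threshold with all arrays (limma, adjusted p = 0.0572), passing without wild-type array 3 (adjusted p = 0.0266). The probe sets 261270_at and 262615_at had log2 changes of -0.05 and -0.30, and their groups overlapped. 262615_at was dim, with group means of 3.04 in mutant and 3.34 in wild-type seeds. The dimmest 40% of all probe sets have a mean of up to 3.44. The change of 262615_at was -0.04 without wild-type array 3, its highest reading. eIF6, which keeps the ribosomal subunits apart, had changes of -0.14 and -0.06. The second, of 245086_at, was dim too, with group means of 2.85 and 2.91. Of 6 probe sets titled only as related to initiation factors, AT1G73180 differed most, with 6.03, 6.23 and 6.12 in mutant seeds, against 5.73, 5.68 and 5.21 in wild-type seeds (log2 change 0.59, limma, adjusted p = 0.112). Wild-type array 3 read lowest here, and without it the log2 change was 0.42 (adjusted p = 0.0475).

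Of the 7 probe sets for cytosolic elongation factors 0 passed. eEF1A carries charged tRNAs to the ribosome and eEF2 moves the ribosome by a codon. The shared eEF1A probe set, which stands for 4 genes, read 12.76, 12.91 and 12.73 in mutant seeds, against 12.77, 12.83 and 12.84 in wild-type seeds. eEF2 (262064_at) read 11.81, 11.95 and 11.72 in mutant seeds, against 11.88, 11.94 and 11.68 in wild-type seeds. Both overlapped between the groups, with log2 changes of -0.01 and 95% intervals of -0.24 to 0.22 for eEF1A and -0.28 to 0.26 for eEF2.

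eEF1B is the exchange factor that reloads eEF1A with GTP. All 4 of its probe sets read higher on every mutant array than on any wild-type array, where 14.9% of all probe sets did, and 0 of the 4 passed the test. This held for all 4 without wild-type array 3 too, and for 17.3% of all probe sets. The alpha-1 subunit AT5G12110 read 6.17, 6.32 and 5.91 in mutant seeds, against 5.14, 5.44 and 4.43 in wild-type seeds. Its log2 change was 1.13 (95% interval 0.55 to 1.71, a ratio of 2.19, limma, adjusted p = 0.0650), with the lowest reading on wild-type array 3. The difference was 0.84 without that array, where the test was passed (adjusted p = 0.0114). The alpha-2 subunit AT5G19510 read 10.34, 10.39 and 10.29 in mutant seeds, against 10.001, 9.89 and 9.72 in wild-type seeds, a log2 change of 0.47 (limma, adjusted p = 0.0730). It passed without wild-type array 3 (log2 change 0.40, adjusted p = 0.0498), with an intensity trend (0.0256) and with array weights (0.0318). The shared gamma probe set, for AT1G09640 and AT1G57720, had a log2 change of 0.36 (95% interval 0.12 to 0.60), and the shared EF-1-beta probe set (265816_s_at, picked out after its values were seen) one of 0.33 (95% interval 0.11 to 0.56), both with adjusted p = 0.140 in limma. The median log2 change over the 4 was 0.415. Whether eEF1B differs from the other elongation factors was not tested.

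Probe sets grouped by title as factors of organelle or bacterial type gave 0 calls among 17. Not all of these titles name a plastid or mitochondrion, those of EF-Tu family among them. EF-P, a bacterial-type counterpart of eIF5A, came nearest. Its gene AT3G08740 read 7.36, 7.42 and 7.28 in mutant seeds, against 6.75, 6.56 and 5.95 in wild-type seeds, a log2 change of 0.93 (95% interval 0.47 to 1.39, limma, adjusted p = 0.0594). Without wild-type array 3, its lowest reading, the change was 0.70 and passed (adjusted p = 0.00695). The other EF-P gene, AT4G26310, overlapped between groups, with a log2 change of 0.36 that turned to -0.03 without wild-type array 3.

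The initiation factors of organelle or bacterial type had changes of both signs, and 0 of 6 passed. The mitochondrial IF-2 gene AT4G11160 read 5.89, 5.85 and 6.07 in mutant seeds, against 6.66, 6.66 and 6.13 in wild-type seeds, a log2 change of -0.54 (95% interval -0.92 to -0.17, limma, adjusted p = 0.148). On wild-type array 3 this gene lay close to the mutant arrays, and without that array the test was passed (log2 change -0.72, adjusted p = 0.00614). Its chloroplast counterpart FUG1 had a log2 change of 0.09. The IF-3 genes, which help position the initiator tRNA in bacteria, had log2 changes of 0.69 (AT4G30690), 0.54 (AT2G24060, picked out after its values were seen) and -0.38 (AT1G34360). Without wild-type array 3 these were 0.45, 0.35 and -0.16. Chloroplast IF-1 (AT4G11175) had a log2 change of 0.28. EF-Tu and EF-Ts, the bacterial counterparts of eEF1A and its exchange factor, stayed within 0.31 of 0, with 0.30 for EF-Tu of the chloroplast (254480_at, TUFA; 95% interval 0.06 to 0.54), 0.09 for EF-Ts AT4G11120 and 0.05 for EF-Ts 253758_at. The mitochondrial elongation factor probe set had a log2 change of 0.01.

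**Figure D4:**
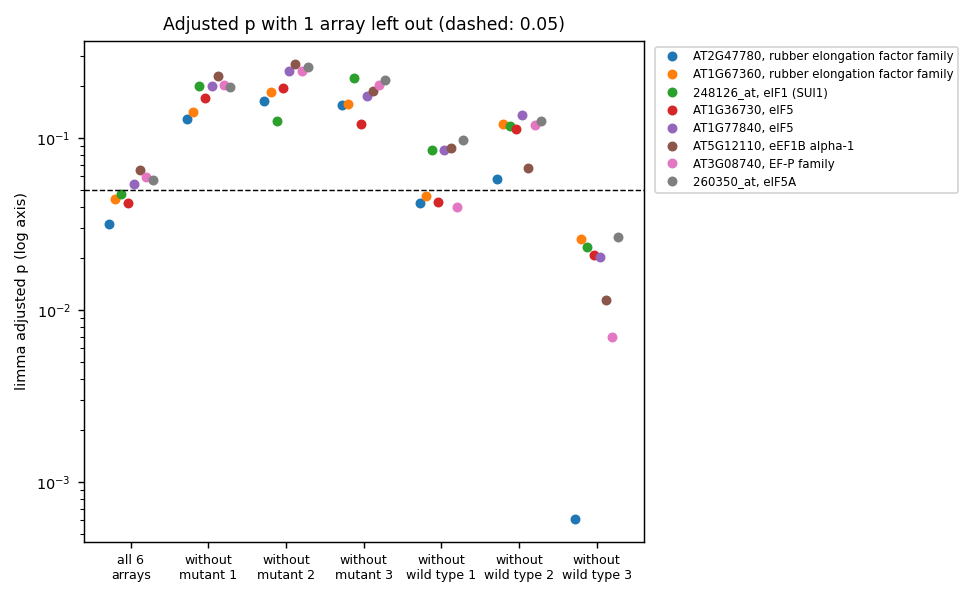
Adjusted p from limma (vertical log axis, dashed line at 0.05) for 8 probe sets, with all 6 arrays and with each array left out in turn. All 8 lie under 0.05 without wild-type array 3, and 0 of the 8 do without any mutant array or without wild-type array 2.

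The calls hung on single arrays. Without wild-type array 3, 11 of the 92 probe sets passed, 8 higher and 3 lower, against 6.73% of all probe sets, 3.86% being higher and 2.87% lower. Without wild-type array 1 the count was 4, and without wild-type array 2 or any mutant array it was 0. The shares of all probe sets in these fits are not set beside these counts, so they are no result about the factors. The number of all probe sets that passed also moved widely with the array left out, as given below under the processing. Whether the loss of calls is particular to the factors was not tested.

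The rubber elongation factor family in *Arabidopsis* consists of proteins that coat lipid droplets, and 2 of its 3 probe sets rose. AT2G47780 read 7.71, 7.87 and 7.79 in mutant seeds, against 6.59, 6.69 and 5.66 in wild-type seeds. Its log2 change was 1.48 (SE 0.26, 95% interval 0.87 to 2.08), a 2.78-fold higher level (limma, adjusted p = 0.0319), and 1.15 without wild-type array 3 (adjusted p = 0.000611). AT1G67360 read 9.52, 9.80 and 9.51 in mutant seeds, against 9.11, 8.92 and 8.83 in wild-type seeds, a log2 change of 0.66 (95% interval 0.36 to 0.95), 1.58-fold higher (limma, adjusted p = 0.0443). In the authors' deposited table its ratio was 0.69 and its false discovery rate 0.0599, so the call was lost there. Both lost the call without wild-type array 2 or any mutant array. AT3G05500 had a log2 change of -0.12 and overlapped between groups (limma, adjusted p = 0.626).

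The other translation genes looked at by title gave 1 call in 77 probe sets (1.3%), against 2.7% of all probe sets. Aminoacyl-tRNA synthetases charge tRNAs with their amino acids. Of 52 such probe sets 1 rose, that of a seryl-tRNA synthetase (264350_at), with 5.65, 5.80 and 5.81 in mutant seeds, against 5.08, 5.34 and 5.03 in wild-type seeds (log2 change 0.60, limma, adjusted p = 0.0451), and 51 did not pass. The rise passed in 1 of the 6 fits that leave out an array, that without wild-type array 3 (adjusted p = 0.0268), and not with an intensity trend (0.0861), after renewed quantile normalization (0.110) or in the authors' deposited table (false discovery rate 0.0701). Without wild-type array 3 the synthetase probe set 248634_at passed as lower (log2 change -0.66, limma, adjusted p = 0.00961). Without wild-type array 1, 252516_at passed as higher (log2 change 0.59, limma, adjusted p = 0.0460). The median log2 change of the 52 was 0.04. Release and recycling factors end translation and free the ribosome, and 0 of 11 passed. The release factor eRF1-1 (AT5G47880) read 7.54, 7.48 and 7.77 in mutant seeds, against 8.07, 8.01 and 7.98 in wild-type seeds, a log2 change of -0.42 (limma, adjusted p = 0.109). This was the lowest of the 11 changes, of which 8 were above 0 and 3 below, with a median of 0.13. The highest, picked out after its values were seen, was 0.81 for the release factor probe set 249691_at, and 0.45 without wild-type array 3. Of 14 probe sets titled as poly(A)-binding proteins, their family or related proteins, 0 passed. Such proteins can join the mRNA tail to the cap complex, but titles of family or related proteins need not stand for this role. The smallest p belonged to AT5G65260, titled only as family protein (log2 change 0.36, adjusted p = 0.165 in limma).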

How the data were processed

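Log2 expression values for each probe set and array were used as deposited by the authors. RMA and limma are named, without versions, per the submitters' processing notes. The authors' deposited comparison table gave titles, log2 ratios of mutant over wild type and p-values with false discovery rates, used as an alternative. Its 6 columns of values per array were not used. Genes were taken from the platform's annotation, then from the titles through RefSeq names (TAIR10.1).

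The 64 control probe sets were left out. For the other 22746, lmFit and eBayes of limma (version 3.58.1, under R 4.3.3) compared the genotypes, with Benjamini-Hochberg adjustment over all of them and a threshold of 0.05. These steps were tested on simulated data. With 3 arrays a group, their number limits precision. Seed and leaf marker genes listed by name had 0 paired probe sets, so titles chosen afterwards were used.

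Named are all probe sets that passed, in each role that with the smallest p and that with the highest mean, the 5 nearest to passing, the 5 largest rises and falls, and those whose call changed when 1 array was left out. Other names were chosen after their values were seen. In the other translation genes, those that passed are named, or up to 2 with the smallest p. The members and lists were chosen with earlier results of these data known. Alternatives were a replicate block, leaving out each array, an intensity trend, robust estimation, array weights, renewed quantile normalization, median centring, leaving out the dimmest 40% of probe sets, 1 probe set per gene and the authors' table. Promoter motifs were not analysed here.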

Additional observations from a re-analysis of the deposited data

How the results depend on the processing

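The 615 probe sets that passed became 1490 with array weights (956 higher, 534 lower) and 1042 with renewed quantile normalization (593 higher, 449 lower), against 438 higher and 177 lower as reported. They ranged from 86 to 1530 when 1 array was left out. Of the 92 factors, 4 passed (3 higher, 1 lower). The count was 9 with an intensity trend (3.1% of all probe sets passed there), 11 with array weights (6.55%), 10 with renewed quantile normalization (4.58%), 7 with median centring (3.96%), 6 without the dimmest 40% (5.25%), 2 in the authors' deposited table (2.25%) and 2 without the rubber elongation factor titles, and from 0 to 11 when 1 array was left out. It stayed at 4 with robust estimation and with 1 probe set per gene. With the replicate number as a block it was 2 and 443 of all probe sets passed. The numbers do not pair the samples (correlations of same-numbered deviations -0.158, 0.145 and 0.217), so the block is given only here. The call among the other translation genes became 0 with the block, 0 with an intensity trend, 2 with array weights, and 0 to 2 when 1 array was left out. It stayed at 1 after renewed quantile normalization and in the authors' deposited table, but the seryl-tRNA synthetase was not the probe set called. The one called was eRF1-1 (AT5G47880), lower in the mutant, after renewed normalization, and a methionyl-tRNA synthetase (AT4G13780), higher, in the authors' deposited table. The median log2 change of the 92 was 0.044, and -0.040 after renewed quantile normalization and -0.024 after median centring, so its sign depends on the scaling. It was 0.022 to 0.050 when 1 array was left out. Without wild-type array 3, a setting added after seeing the data, 42 probe sets did not overlap, against 27.

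The direction turned in 88 of 1279 values of the 92 probe sets, and 0 of the 30 probe sets concerned had passed. EF-P AT4G26310 had the largest change among these 30, 0.36 with all arrays and -0.032 without wild-type array 3. Among the 41 probe sets named by rule, 24 of 573 values turned. After renewed quantile normalization the log2 change was -0.0956 for EF-Ts 253758_at, -0.084 for EF-Ts AT4G11120, -0.0274 for FUG1 and -0.0389 for the mitochondrial elongation factor. After median centring it was -0.0181 for eIF2 246192_at, -0.0176 for 253758_at and -0.056 for the mitochondrial elongation factor. It was 0.0085 for eIF3g 259238_at with array weights and 0.02 for eEF2 in the authors' deposited table. With 1 array left out it ranged from -0.0208 to 0.1262 for 246192_at, -0.0656 to 0.0245 for the shared eEF1A probe set, -0.082 to 0.0633 for LSP1, -0.0757 to 0.1869 for 253758_at, -0.0816 to 0.2476 for AT4G11120, -0.1025 to 0.0323 for 259238_at and -0.0822 to 0.0454 for eEF2. The causes were not tested.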

Other observations

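The eIF5 gene AT1G77840 lies on the same chromosome as AGL67 itself, with 12 protein-coding genes between them in the RefSeq order (TAIR10.1). This was looked up after the values were seen. Of 25 probe sets that name 1 of the 20 genes on either side of AGL67, 1 passed the test, AT1G78150, which was higher in mutant seeds (log2 change 0.54, limma, adjusted p = 0.0366), and 0 were lower. Of all probe sets 2.7% passed. AT1G77840 was among the 24 that did not pass. Whether distance from the mutated gene bears on its level was not tested.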
